A study of Mus musculus with 4 samples.

Results

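Neat1, Malat1 and 4 proteins of the nuclear bodies called paraspeckles (Sfpq, Nono, Pspc1 and Rbm14) were followed in liver RNA of mice without Ilrun. The members were found by name: every array probe whose gene name, or whose transcript accession, belongs to 1 of these 6 genes was taken, which gave 9 of 39429 probes and 6 of 31709 genes. The set was put together after the IlrunKO over wild-type ratio of Neat1 in these same arrays was known. The ratios and levels of the members are therefore given as a description, with no test.

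Livers came from male C57BL/6 mice on a chow diet that had been fasted for 4 h. In the 4 IlrunKO samples Ilrun, known to regulate inflammatory signalling and lipid metabolism, was knocked out globally, and the 4 control samples were wild type (WT). Each of 4 two-colour arrays held 1 IlrunKO and 1 WT sample, arrays 1 and 2 carrying IlrunKO in Cy5 (red) and arrays 3 and 4 carrying it in Cy3 (green). The labels used here name biological replicates but give neither mouse age nor whether RNA was pooled, so the spread between samples may be in part technical. In whole liver, fewer cells of a type and less RNA per cell cannot be told apart.

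A paraspeckle is a droplet-like body in the nucleus that forms on the long noncoding RNA Neat1. The gene makes a short polyadenylated RNA and a long RNA that shares the sequence of the short one at its 5′ end, and it is the long RNA that carries the body. Sfpq, Nono and Pspc1 belong to 1 family of RNA-binding proteins (DBHS proteins) that pair with each other and coat the long RNA, and Rbm14 is a prion-like protein needed to build the body. Malat1, the neighbour of Neat1 on the chromosome, is an abundant nuclear RNA held in a different body, the nuclear speckle, where splicing factors gather. Paraspeckles grow and shrink with stress, viral infection and metabolic state, and retain some proteins and RNAs inside the nucleus.

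The probes decide what each value means, so those that carry a result are shown, in lower case from 5′ to 3′ as the array files give them, with positions on mouse genome build mm9. The Neat1 probe (chr19:5842564-5842623, minus strand) and the Malat1 probe (chr19:5795713-5795772, minus strand) are the only probes of these 2 RNAs, and no base is marked in them.
Neat1: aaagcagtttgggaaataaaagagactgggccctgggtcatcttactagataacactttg
Malat1: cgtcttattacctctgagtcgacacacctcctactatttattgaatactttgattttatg
Neither shares a run of 20 bases with any other probe on the array, and the same held for the other 7 member probes. With 1 probe for Neat1, its short and long RNAs were not separated. The labelling kit primes from poly(A), which mature Malat1 and the long Neat1 RNA lack at their ends, and how far they were labelled was not tested.

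The 2 Nono probes lie at almost the same place (chrX:98643869-98643928 and chrX:98643867-98643926, plus strand) but are not the same sequence. Over 58 aligned bases, 55 were identical. The 3 differences are G19T, G26A and G45A, with the base of the brighter probe first and positions counted from 1 at its 5′ end. The stretch that holds all 3 is shown with the differing bases in capitals.
Nono brighter: cGtcatgcGgcatcaccttattaaaatGca
Nono dimmer: cTtcatgcAgcatcaccttattaaaatAca
Which of the pair matches the gene was not checked, as no mm9 genome was used here, so Nono signal may include a near-identical copy. The 2 Rbm14 probes lie apart on chromosome 19 (4800961 to 4801020 for the brighter, 4802874 to 4802933 for the dimmer, minus strand), and their first 30 bases are shown because their values differ.
Rbm14 brighter: tccctatctctccaagtaggtggtgttaga
Rbm14 dimmer: tatggggctcaagcatctattggcctgtca

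Neat1 stood higher in every IlrunKO liver than in any WT liver. Its normalised level was 14.48, 14.68, 14.53 and 14.16 (log2 intensity) in the IlrunKO channels of arrays 1 to 4, against 12.81, 12.33, 12.20 and 11.61 in the WT channels. The groups did not overlap: the lowest IlrunKO sample lay 1.35 above the highest WT sample. Groups that do not overlap, with IlrunKO higher by any margin, were seen for 4.74% of all genes tested, and nothing is read from this for a gene chosen by its ratio. The 4 IlrunKO livers lay close together (SD 0.22) and the WT livers were more spread (SD 0.49), the WT sample of array 1 being the highest and that of array 4 the lowest.

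Paired by array, the log2 ratio of IlrunKO over WT for Neat1 was 1.68, 2.34, 2.33 and 2.55, with a mean of 2.23 ± 0.38 (SD, n = 4). This is 4.68-fold on the linear scale, the fourth largest ratio (rank 4) of 19658 genes tested. The smallest ratio came from array 1, where the WT sample was high. With IlrunKO in Cy5 the mean ratio was 2.01 and with IlrunKO in Cy3 it was 2.44, so both dye orientations gave the same direction. Neat1 was also bright, above 95.4% of genes by mean intensity, and well above background in 8 of 8 channels.

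**Figure D1:**
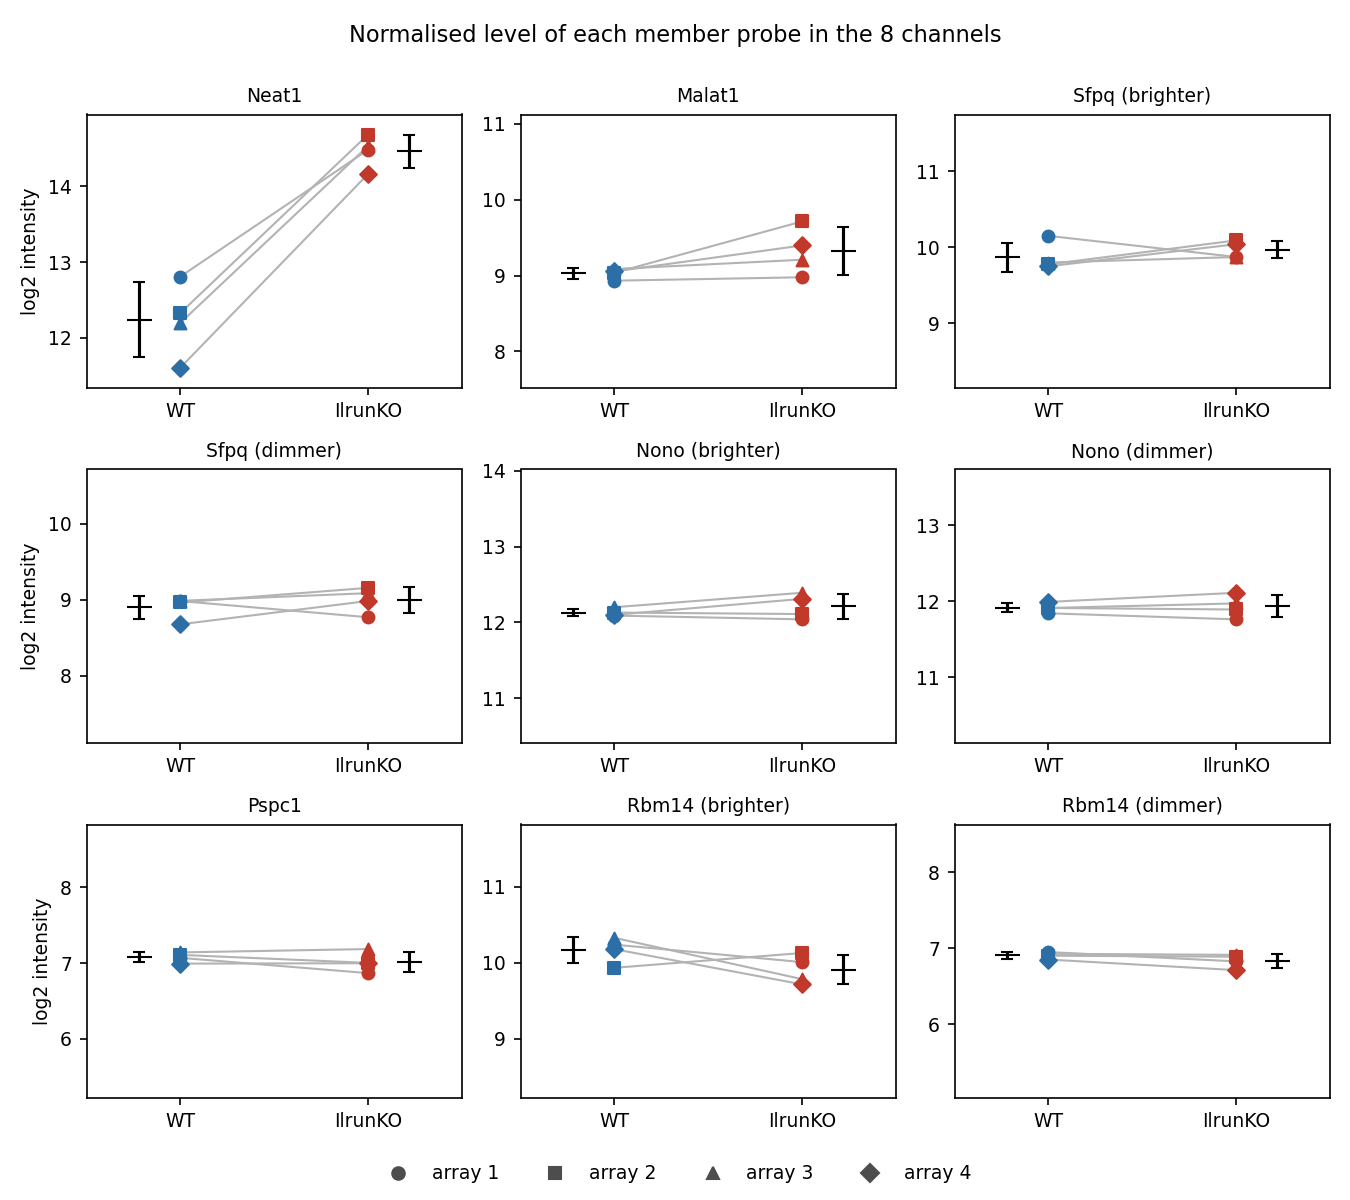
Level of each of the 9 member probes (log2 intensity after normalisation) in the WT (blue) and IlrunKO (red) channels, 1 panel per probe with the same span on each y axis, lines joining the channels of an array, and black bars giving the mean and SD of 4 samples. In the Neat1 panel all 4 IlrunKO points lie above all WT points, while in the other 8 panels the groups overlap.

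Malat1, measured by its single probe, did not follow Neat1 in size. Its level was 8.98, 9.71, 9.21 and 9.40 in the IlrunKO channels and 8.93, 9.04, 9.09 and 9.05 in the WT channels. The WT livers were nearly level (SD 0.07), and the IlrunKO livers were spread (SD 0.31), with array 2 highest and array 1 inside the WT range. The log2 ratio was 0.04, 0.68, 0.12 and 0.34, a mean of 0.30 ± 0.28 (SD, n = 4) or 1.23-fold. Fitted with a dye term, the ratio rested on single arrays, being 0.14 without array 2 and 0.45 without array 1. In these fits the lone array of a dye orientation counts as much as the 2 arrays of the other. All 4 arrays lay above 0, as they did for 11.7% of all genes. Array by array, the Neat1 ratio exceeded the Malat1 ratio by 1.63, 1.67, 2.21 and 2.21 (mean 1.93 ± 0.32, SD, n = 4). The ratios of the 2 neighbouring RNAs were thus unequal on every array. Neat1 was chosen by its ratio, so nothing is read from this excess.

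Sfpq encodes a splicing factor of the DBHS family that is essential for paraspeckles, and its 2 probes gave nearly the same ratios. The brighter probe (chr4:126707977-126708036) had levels of 9.87, 10.09, 9.87 and 10.04 in IlrunKO and 10.15, 9.77, 9.80 and 9.75 in WT liver. The groups overlapped, and the WT sample of array 1 stood above the rest. The log2 ratio was -0.28, 0.31, 0.07 and 0.29, a mean of 0.10 ± 0.27 (SD, n = 4). The dimmer probe (chr4:126708420-126708479) gave -0.21, 0.19, 0.10 and 0.31, a mean of 0.10 ± 0.22 (SD, n = 4). Both placed array 1 below 0 and the other arrays above it, and the mean turned to -0.05 without array 2 and to 0.00 or just below with median centring, so no direction is given for Sfpq.

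Nono encodes the DBHS partner of Sfpq in the core of the body. Its brighter probe had levels of 12.04, 12.11, 12.39 and 12.31 in IlrunKO and 12.09, 12.13, 12.20 and 12.10 in WT liver, again overlapping. The log2 ratio was -0.05, -0.02, 0.19 and 0.21, a mean of 0.08 ± 0.14 (SD, n = 4). The dimmer probe, with 3 other bases, gave -0.08, -0.02, 0.06 and 0.13, a mean of 0.02 ± 0.09 (SD, n = 4). Both probes lay below 0 where IlrunKO was in Cy5 and above 0 where it was in Cy3, and with median centring the mean of the brighter probe was -0.05. These ratios were small beside the spread between arrays.

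Pspc1 encodes the third DBHS protein, the marker by which paraspeckles were first seen. Its probe (chr14:57341870-57341929) was among the dimmer ones, with levels of 6.87, 7.0, 7.18 and 7.0 in IlrunKO and 7.07, 7.11, 7.14 and 6.99 in WT liver. The log2 ratio was -0.20, -0.11, 0.04 and 0.01, a mean of -0.06 ± 0.11 (SD, n = 4), and the groups overlapped. The offset of 50 added to every intensity narrows ratios of dim probes. With the offset set to 0 and nothing else changed, Pspc1 gave -0.42, -0.20, 0.05 and 0.01, a mean of -0.14. With Agilent's processed signals, whose background and normalisation differ too, the mean was -0.22 and Pspc1 lay below 0 on 4 of 4 arrays.

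Rbm14 was the only member whose brighter probe leaned lower in IlrunKO liver on 3 of 4 arrays. Its levels were 10.01, 10.13, 9.79 and 9.72 in IlrunKO and 10.24, 9.94, 10.33 and 10.18 in WT liver. Array 2 went the other way from arrays 1, 3 and 4, and the groups overlapped. The log2 ratio was -0.23, 0.20, -0.55 and -0.47, a mean of -0.26 ± 0.33 (SD, n = 4) or 1.20-fold lower. The mean was -0.02 with IlrunKO in Cy5 and -0.51 with IlrunKO in Cy3. This probe was printed 10 times on each array, which shows how precise 1 measurement is. The SD between its spots was 0.06, 0.07, 0.08 and 0.07 on arrays 1 to 4, from 10, 7, 10 and 10 spots kept. Repeat spots share the sample and the array, so this SD covers the spots alone. Between arrays the SD was 0.33 at this probe and 0.07 at the other Rbm14 probe, which is dim. The source of this difference was not tested.

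The dimmer Rbm14 probe gave a different picture, with -0.12, -0.01, -0.01 and -0.14, a mean of -0.07 ± 0.07 (SD, n = 4). It lay below 0 on 4 of 4 arrays, array 2 included. Its levels, between 6.71 and 6.95 in all 8 channels, put it where the offset narrows ratios. With the offset set to 0 it gave -0.27, -0.03, -0.03 and -0.25, a mean of -0.15. With Agilent's processed signals the dimmer probe gave -0.40, -0.01, -0.13 and -0.29, while the brighter gave -0.26, 0.18, -0.56 and -0.47, so the pair still differed on arrays 2 and 3.

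**Figure D2:**
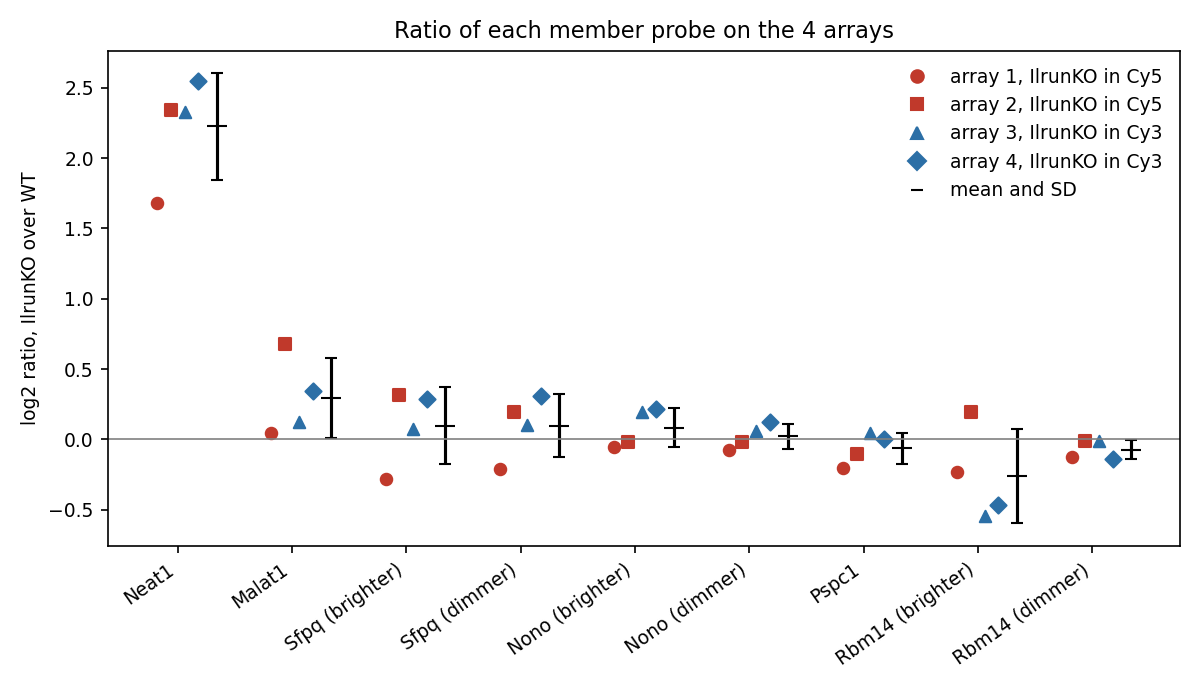
Log2 ratio of IlrunKO over WT for each member probe on the 4 arrays (red, IlrunKO in Cy5; blue, IlrunKO in Cy3), with the mean and SD in black. Neat1 stands between 1.68 and 2.55, Malat1 between 0.04 and 0.68, and the probes of the 4 proteins between -0.55 and 0.31.

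**Figure D3:**
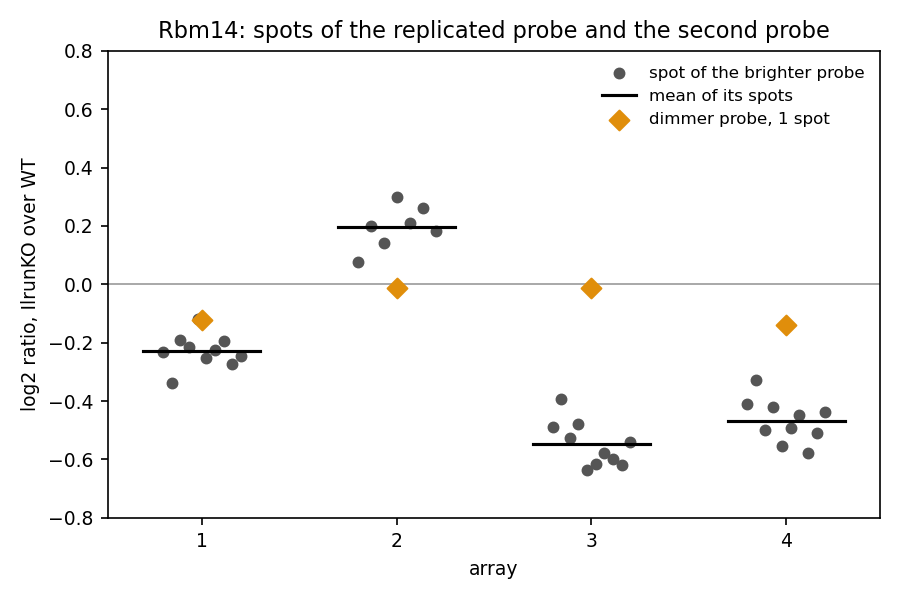
Log2 ratio of IlrunKO over WT for every spot of the brighter Rbm14 probe on each array (grey), their mean (line) and the dimmer Rbm14 probe (orange diamond). Spots of an array lie close together, at 0.20 on average on array 2 and at -0.55 on array 3.

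In limma's fit over all genes, 270 of 19658 genes passed an adjusted p under 0.05, which is 1.37% (0.717% higher and 0.656% lower in IlrunKO liver). Of the 6 members 1 passed, Neat1, which was higher, through a ratio already known when the set was made, so nothing is read from that count. In the same fit over all 24357 probes 1.5% passed (0.809% with IlrunKO higher), and of the 9 member probes 1 did, that of Neat1. No member passed with median centring, without array 3 or without array 4, each of which left 1 gene passing of all tested. The other 5 members did not pass, which does not show that they were level. Over the 4 arrays the ratio of Rbm14 had the widest spread among the protein members (SD 0.33). The dye term takes out the part of it that lies between dye orientations. In the fit over probes the standard error was 0.08 for the brighter Rbm14 probe and 0.11 for the brighter Sfpq probe. The unadjusted p of Rbm14 in limma's fit over genes was 0.0259, and 20.5% of all genes had one under 0.05.

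Other genes of these nuclear bodies were taken from lists. "Rose" and "fell" are kept for genes past that threshold. Of all 19658 genes tested, 9712 had a ratio above 0. Among 124 tested genes of these lists, 2 rose and none fell (1.61% against 1.37% of all genes), and 35 had an unadjusted limma p under 0.05 (20.5% of all genes did). Of 29 other paraspeckle proteins, none passed in limma, while 6 reached an unadjusted p under 0.05; 11 lay above 0, and their median ratio was -0.04 against -0.00 for all genes. The chromatin remodeller gene Smarca4, also found in the body, stood at 0.25 ± 0.11 (SD, n = 4; adjusted p = 0.0899 in limma).

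Of 24 tested proteins of nuclear speckles and splicing, the compartment of Malat1, 1 rose and none fell in limma; 15 lay above 0, with a median of 0.07. An unadjusted p under 0.05 was reached by 11 of the 24 (45.8%, against 20.5% of all genes). The riser was Ddx39b, an RNA helicase of splicing and mRNA export, at 0.43 ± 0.10 (SD, n = 4; adjusted p = 0.0456 in limma). Its other probe stood at 0.25 and did not pass (adjusted p = 0.0873 over probes), and 9 of 14 alternatives lost the call, with adjusted p from 0.0333 to 0.523. Ddx39b lies on chromosome 17, as does Ilrun, with probes that start at 35390546 and 27888506. Whether this position bears on its ratio was not tested.

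Among 20 tested genes that cut the 3′ ends of Neat1 and Malat1 or modify these RNAs, none passed in limma (5 had an unadjusted p under 0.05), 12 lay above 0 and the median was 0.07. Pop1, a subunit of the RNase P that releases the Malat1 3′ end, stood at 0.34 ± 0.13 (SD, n = 4; adjusted p = 0.0767) and Rprd1a at 0.59 ± 0.31 (SD, n = 4; adjusted p = 0.0831). A second Pop1 probe gave 0.31. Of 14 tested transcriptional regulators reported for Neat1, none passed in limma; 2 reached an unadjusted p under 0.05 and 3 lay above 0, with a median of -0.02. The coactivator genes Crtc1 and Crebbp stood at 0.20 ± 0.14 and -0.14 ± 0.20 (SD, n = 4), with adjusted p of 0.124 and 0.226 in limma. Of 15 immediate early genes none passed (3 had an unadjusted p under 0.05), with Nr4a1 at -1.01 ± 0.83 and Jun at -0.64 ± 0.61 (SD, n = 4; adjusted p = 0.0582 and 0.126 in limma).

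Transcripts reported to be held or set by paraspeckles were few. Slc7a2, the arginine transporter gene whose CTN-RNA isoform is kept in paraspeckles, stood at 0.10 ± 0.28 (SD, n = 4; adjusted p = 0.691 in limma), and the probe was not matched to that isoform. Nicn1 stood at 0.31 ± 0.17 (SD, n = 4; adjusted p = 0.113 in limma). Adarb2 was not above background often enough to be tested.

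Of 21 other long noncoding RNAs tested, 1 rose and none fell in limma, with a median of -0.03, 9 above 0 and 7 at an unadjusted p under 0.05 (33.3%). The riser was Meg3, the imprinted RNA of the Dlk1 locus, at 2.25 ± 0.74 (SD, n = 4; adjusted p = 0.0403 in limma). Its levels were 10.36, 11.20, 10.69 and 10.98 in IlrunKO and 9.20, 8.55, 8.25 and 8.23 in WT liver, so that on array 1, as for Neat1, the ratio was smallest and the WT sample highest. Other Meg3 probes gave 1.24 (adjusted p = 0.0484 over probes) and 0.43 (adjusted p = 0.0839), and 5 of 14 alternatives lost the call, with adjusted p from 0.00901 to 0.196.

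**Figure D4:**
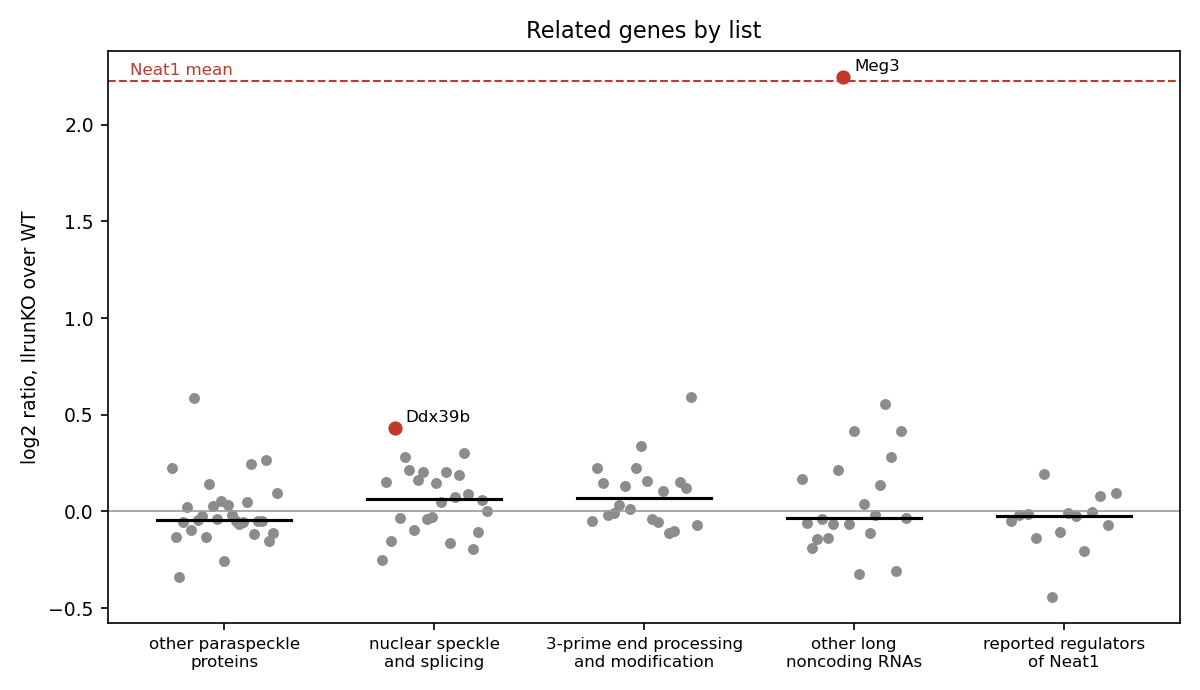
Log2 ratio of IlrunKO over WT for each tested gene of 5 lists (points; red where limma's adjusted p was under 0.05), the median of each list (line) and the mean of Neat1 (dashed). Meg3, at 2.25, lies at the height of Neat1, Ddx39b is at 0.43, and the list medians run from -0.04 to 0.07.

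The genes around Neat1 and Malat1 were described too, since the 2 probes lie 46792 bases apart on chromosome 19. Within 500 kb of them 74 genes had a probe, and 55 were bright enough to be tested. None rose and 1 fell, against 0.717% and 0.656% of all genes. An unadjusted p under 0.05 in limma was reached by 10 of the 55, against 20.5% of all genes. The median ratio was 0.01, with a range from -0.55 to 0.29. No neighbour came near the ratio of Neat1, and nothing is read from this, as Neat1 was chosen by its ratio.

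On the Neat1 side the nearest position, 8687 bases away at 5851310 to 5851369, holds a pair of probes for the 2 strands. The 60 bases of either are the reverse complement of the other. Frmd8, on the minus strand like Neat1, stood at 0.00 ± 0.25 (SD, n = 4; adjusted p = 0.993 in limma). The plus-strand transcript, named only by an Ensembl identifier (ENSMUST00000052291), fell by 0.55 on the log2 scale (SD 0.16, n = 4; adjusted p = 0.042 in limma), with levels of 7.07, 6.98, 7.11 and 7.16 in IlrunKO and 7.59, 7.75, 7.61 and 7.56 in WT liver. All 4 IlrunKO samples lay below all WT samples, as for 4.2% of genes tested. It lost its call in 5 of 14 alternatives: without array 2, 3 or 4, with Agilent's processed signals and with median centring. Over the alternatives limma's adjusted p ran from 0.0237 to 0.217. The ratio of this dim probe ran from -0.48 without array 2 to -1.03 with Agilent's processed signals.

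**Figure D5:**
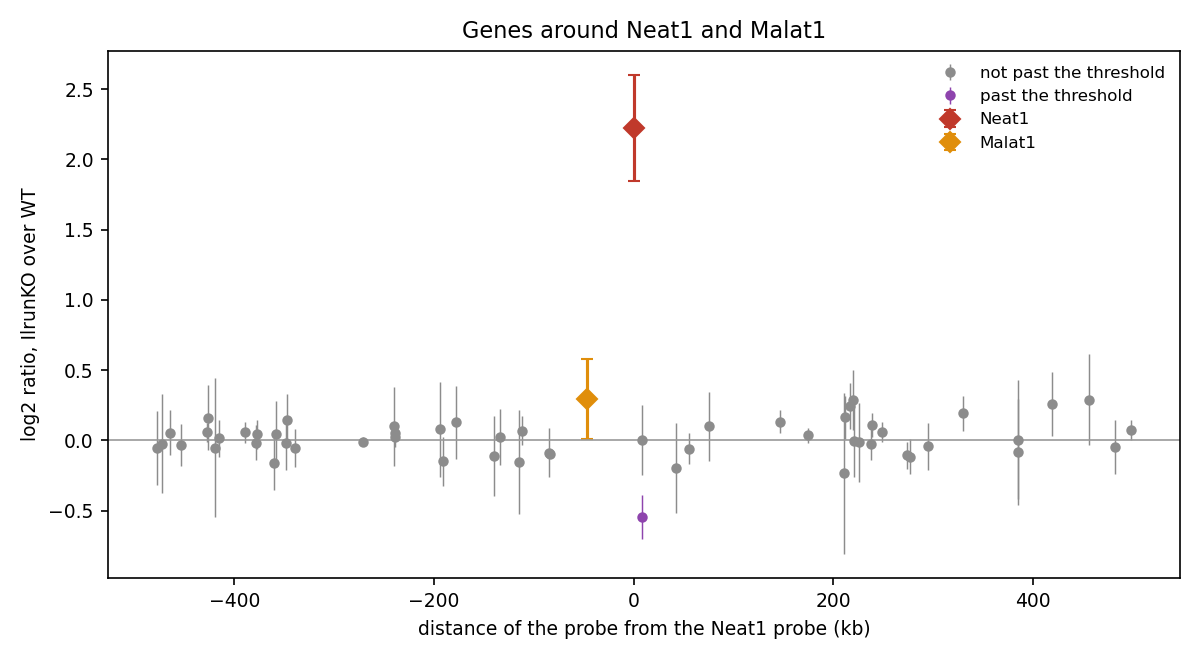
Log2 ratio of IlrunKO over WT (mean and SD of 4 arrays) of genes within 500 kb of Neat1 or Malat1, against the distance of each probe from the Neat1 probe in kb. Neat1 (red) is at 2.23, Malat1 (orange) is at 0.30, and the plus-strand transcript beside Frmd8 (purple) is at -0.55.

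Genes whose level over the 8 channels was most like that of Neat1 were ranked by Pearson's r, among 645 genes with a span of at least 1 log2 unit. The 8 channels share 4 arrays and fall into 2 genotypes, so r describes the genotype step as much as anything else. The closest were Zfr2 (r = 0.982), Lrrc51 (0.975), Meg3 (0.968), Gm6685 (0.966) and Sult2a7 (0.965), and 10 genes lay above 0.95. Zfr2 was the steadiest across arrays, with ratios of 1.45, 1.47, 1.42 and 1.34, while Sult2a7, a sulfotransferase gene, stood at 2.40, 2.78, 3.09 and 2.14. The WT samples ranked alike for Zfr2, Gm6685, Meg3 and Neat1, with Zfr2 levels of 6.79, 6.66, 6.47 and 6.41 on arrays 1 to 4. They ranked otherwise for Lrrc51 and Sult2a7. Zfr2, Gm6685 and Meg3 were picked here by their likeness to Neat1 over the same channels, so nothing is read from this order.

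For Malat1, 646 genes with a span of at least 1 log2 unit were ranked. Malat1 itself spanned 0.78, less than any gene ranked, and Neat1 spanned 3.07. The genes most like Malat1 were others than those most like Neat1, and none exceeded an r of 0.91. They were Hmgcs1 (r = 0.908), Lss (0.890), Msmo1 (0.888), Evl (0.878) and Lingo4 (0.864), the first 3 being enzymes of cholesterol synthesis. Hmgcs1 had log2 ratios of 0.42, 1.21, -0.03 and 0.69, and Msmo1 of 0.28, 1.84, 0.18 and 0.52. For all 5, as for Malat1, array 2 gave the largest ratio. These 5 genes were picked by their likeness to Malat1 over the same channels, so nothing is read from this.

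Measures of the whole series bear on these values as follows. Ilrun itself was 18.5-fold lower in IlrunKO liver, in the direction of the genotype labels on 4 of 4 arrays. For the marker counts that follow, 0.717% of all genes rose and 0.656% fell in limma. Of all 19658 genes tested, 9712 lay above 0, and 20.5% had an unadjusted p under 0.05. Of the liver's cells, hepatocyte markers were bright in all channels (summed intensity 933100 to 1425000 in IlrunKO and 1104000 to 1514000 in WT), with 3 of 14 above 0, none passing in limma and 8 at an unadjusted p under 0.05. Of 6 fat cell markers tested 2 rose (Adrb3 and Cfd), 5 had a mean above 0, and Fabp4 stood at -0.11. Their median ratio was 1.32, 0.50, 0.84 and 1.19 on arrays 1 to 4, highest on array 1, where the Neat1 ratio was smallest. Their summed intensity was 102000 to 152100 in IlrunKO against 42450 to 89570 in WT liver. The defining fat cell genes Adipoq, Plin1 and Lep were not above background often enough to be tested. Kupffer cell markers had a mean above 0 in 11 of 12 (29710 to 45790 against 22810 to 35680). Their median was -0.25, 0.82, 0.46 and 0.56 on arrays 1 to 4, lowest on array 1, where the Neat1 and Malat1 ratios were also smallest. None passed in limma, and 5 had an unadjusted p under 0.05. Stellate cell markers lay below 0 in 10 of 10 (25210 to 35850 against 37110 to 38600), with none passing in limma and 9 at an unadjusted p under 0.05. Endothelial markers lay above 0 in 1 of 10, bile duct markers in 2 of 4, lymphocyte and neutrophil markers in 1 of 8 (Nkg7 fell) and red cell markers in 1 of 3. The part of cell mixture in the Neat1 and Malat1 values was not tested.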

How the data were processed

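The 4 two-colour arrays measured liver RNA, each with 1 IlrunKO and 1 WT sample. The authors deposited raw intensity and processed intensity per spot and a log10 ratio, which per the file headers came from Feature Extraction 10.10.1.1, and a table of log2 ratios, for which the submitters' processing notes name limma. That table correlated with the scanner log ratio at 0.957, 0.944, -0.943 and -0.952 on arrays 1 to 4, so it holds IlrunKO over WT. Its column medians were -0.039, -0.043, 0.038 and 0.035, and how it was centred stays unknown. The labels give genotype and dye of each channel.

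Raw intensity was background-corrected (normexp, offset 50) and normalised by loess within arrays with limma 3.58.1 in R 4.3.3; 1377 control spots had weight 0, outlier spots (224 to 381 per array) were left out, and spots of a probe were averaged. Levels are per channel after Aquantile scaling. Probes were named by RefSeq accession (26055), symbol or synonym (4125) or by the name in the file (9249). Each gene was represented by its brightest probe. A gene was tested where 3 or more of the 4 channels of either genotype were well above background and its ratio could be fitted, which left 19658 of 31709 genes. Limma fitted genotype with a dye term (2 residual degrees of freedom, prior 2.83), and p was adjusted by Benjamini-Hochberg, two-sided, at 0.05. The number of arrays limits the precision (median standard error 0.0566).

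All 9 member probes are named; of each list the genes that passed or else the 2 with the smallest p; of neighbours those that passed and the nearest on each side (2 genes under this rule are not reported here); and the 5 genes most like Neat1 and Malat1. Members and lists were chosen with earlier results of these data known. Mitochondrially encoded mRNAs, listed too, had no probe. The fit was checked on simulated data. Alternatives changed the dye term, background correction, normalisation, filter, probe rule, variance model, weights, source of values and arrays; those for the fit over probes were added after the data were seen.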

Additional observations from a re-analysis of the deposited data

Results flagged for a closer look

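In 27 groups of 4 values (levels in each genotype and ratios of the 9 member probes), 2 held a value far from the other 3, and chance gives about 5% of groups. At the brighter Sfpq probe the WT level of array 1 was 10.15, above the other WT samples. At the dimmer Sfpq probe the WT level of array 4 was 8.68, below the other WT samples.

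The probes of Nono and Pspc1 gave opposite signs in the 2 dye orientations, which was not tested. The ratio with IlrunKO in Cy3 exceeded that with IlrunKO in Cy5 by 0.24 at the brighter Nono probe, by 0.14 at the dimmer Nono probe and by 0.18 at the Pspc1 probe. Other members differed between orientations too. The brighter Rbm14 probe had a mean of -0.02 with IlrunKO in Cy5 and -0.51 with IlrunKO in Cy3. At the dimmer Sfpq probe these means were -0.01 and 0.20. The arrays of the 2 orientations hold different samples, so dye and sample cannot be told apart.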

How the results depend on the processing

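The fitted ratio of Neat1 stayed between 2.06 and 2.39 and that of Malat1 between 0.14 and 0.45 over 14 alternatives. Leaving out arrays gave fitted ratios of -0.05 to 0.25 for Sfpq and 0.07 to 0.09 for Nono. For Pspc1 they were -0.09 to -0.04 and for Rbm14 -0.37 to -0.16. Pspc1 was -0.22 with Agilent processed signals. The genes passing were 442 without background correction, 80 with Agilent processed signals, 1 with median centring and 449 with the deposited values, and from 1 to 464 when 1 array was left out (464 without array 1, 1 without array 3 and 1 without array 4). The probes passing were 548, 68, 1 and 589 in the same order, and from 1 to 357. List genes passing were 1 without the dye term, 4 without background correction, 0 with Agilent processed signals, 0 with median centring, 4 with a trended robust variance, 4 with the deposited values, 0 with probes averaged per gene and 0 to 3 with 1 array left out. Neighbours of Neat1 and Malat1 passing were 0 with Agilent processed signals, 0 with median centring and 0 to 1 with 1 array left out. A fit without an array rests on the spread of the 2 arrays of the other orientation, and the lone array is assumed to vary like them. The cause of these differences was not tested. Dim probes (Pspc1, the dimmer Rbm14 probe) limit what small ratios can show. Every ratio pairs IlrunKO with WT within an array. Beyond that, no paired analysis was possible because the 2 dye orientations share no replicate numbers.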
